A study of Mus musculus with 24 samples.

Results

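The hippocampal libraries of a mouse study of stress, electroconvulsive therapy and microglia loss were divided by how much choroid plexus transcript they held. The libraries were chosen by their own value of Ttr, the transthyretin gene, which in brain is transcribed mainly by the epithelium of the choroid plexus. Those with a Ttr normalized read count of 5000 or more were called rich (14 of 24) and those below it poor (10 of 24). All mice were male wild-type C57BL/6 animals of 4 to 8 months. Nonstressed mice on the control diet gave 4 libraries. A second diet held a PLX compound that blocks the CSF1 receptor on which microglia depend (PLX diet). The other mice underwent chronic unpredictable stress (CUS) for 5 weeks, after 3 weeks on the control diet or the PLX diet. They then received electroconvulsive therapy (ECT) under isoflurane for 2.5 weeks at 3 sessions a week, or sham treatment. Stressed mice on the control diet gave 5 sham and 6 ECT libraries, and stressed mice on the PLX diet gave 5 sham and 4 ECT libraries. Libraries are numbered as in their titles. Whether libraries stem from different mice is not in the labels, and the p-values refer to the spread from library to library.

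The choroid plexus hangs in the brain ventricles and lies against the fimbria and the hippocampus. Its epithelium makes cerebrospinal fluid by moving sodium, potassium, chloride, bicarbonate and water across a single cell layer sealed by tight junctions. It also secretes carriers and growth factors into that fluid, among them transthyretin, which binds thyroid hormone and the retinol-binding protein. Below the epithelium lies a stroma of fibroblasts, vessels without a tight barrier and macrophages. The ventricle wall next to it is lined by ependymal cells with motile cilia, and the thalamus and habenula lie across the same fissure.

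The 3 sequences below are the 250 bases before the transcription start of genes that rose in the rich libraries, from RefSeq on the build GRCm38.p6, written along the strand of the gene. They are shown because Otx2, a homeobox factor of the choroid plexus, was itself among the genes that rose, and capitals mark the letters TAATCC, or their reverse complement GGATTA, a core that OTX factors bind. Abca4 (chr3:122044210-122044459, + strand) and Ace (chr11:105967698-105967947, + strand) hold a match and Kcnj13 (chr1:87394730-87394979, − strand), the gene that followed Ttr most closely, holds none.
Abca4: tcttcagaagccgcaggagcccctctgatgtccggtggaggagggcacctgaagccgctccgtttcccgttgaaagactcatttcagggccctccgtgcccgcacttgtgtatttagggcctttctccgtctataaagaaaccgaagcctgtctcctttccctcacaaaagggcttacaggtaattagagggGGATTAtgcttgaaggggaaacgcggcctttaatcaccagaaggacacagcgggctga
Ace: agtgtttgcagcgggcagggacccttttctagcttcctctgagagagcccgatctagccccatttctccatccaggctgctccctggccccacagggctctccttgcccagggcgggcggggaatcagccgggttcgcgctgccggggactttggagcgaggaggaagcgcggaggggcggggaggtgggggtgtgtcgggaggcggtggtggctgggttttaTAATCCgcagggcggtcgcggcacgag
Kcnj13: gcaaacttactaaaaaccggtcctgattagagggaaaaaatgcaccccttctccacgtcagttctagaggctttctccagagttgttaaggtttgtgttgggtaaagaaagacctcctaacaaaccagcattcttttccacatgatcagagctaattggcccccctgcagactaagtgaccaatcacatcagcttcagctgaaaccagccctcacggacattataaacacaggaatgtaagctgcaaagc
The match lies 58 to 53 bases before the start of Abca4, on the opposite strand, and 27 to 22 bases before that of Ace. Searched on both strands, TAATCC stood in 1725 of 27025 promoters of this length (6.38%) and in 4 of the 44 choroid plexus genes that rose and had a promoter in the table (9.09%), the others being Slc39a12 and Car14. The letters GTTGCC, from the site bound by the RFX factors of ciliated cells, stood in 10.5% of all promoters and in 7 of the same 44 (15.9%). These are matches of letters in 1 window and say nothing of binding.

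Ttr itself, on chromosome 18, fell into separate ranges. In the poor libraries it ran 904 to 2202 (median 1353), and in the rich libraries 12771 to 78579 (median 31438). No library lay between library 15, at 2202, and library 25, at 12771, a 5.80-fold gap, so thresholds of 2500 and of 10000 gave the same 14 and 10 libraries. Over all 24 libraries Ttr varied 86.9-fold, and it took 0.00550 to 0.0132% of the reads of poor libraries and 0.0778 to 0.486% of those of rich ones. These values chose the libraries, so the difference between rich and poor carries no test.

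**Figure D1:**
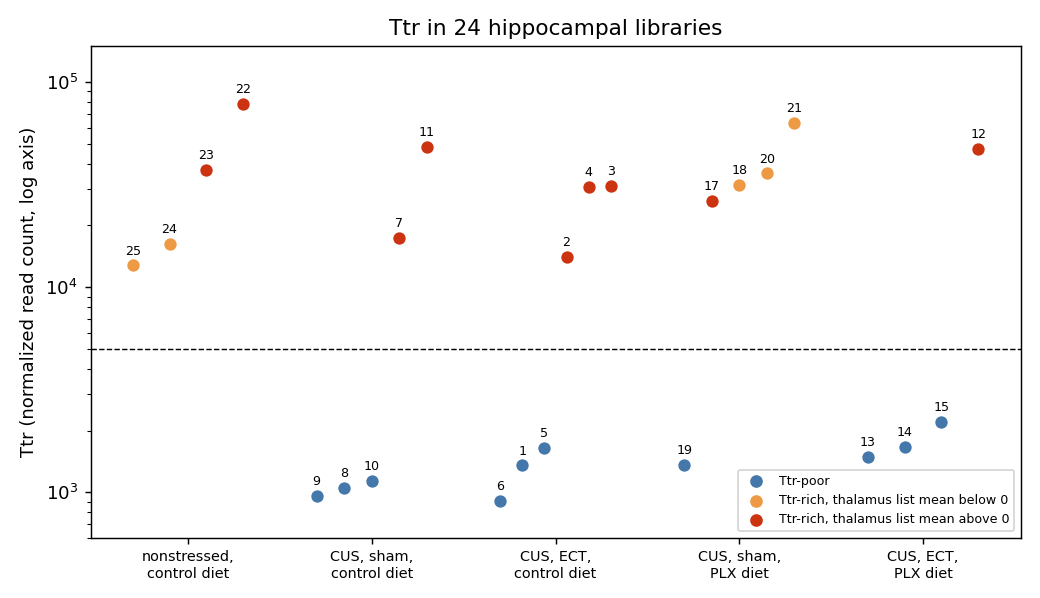
Ttr in each of the 24 libraries (normalized read count, log axis) by condition group, with library numbers; the dashed line is the threshold of 5000, and colours separate poor libraries, rich libraries with a thalamus list mean below 0 and rich libraries with one above 0. No point lies between 2202 and 12771, and all 4 nonstressed libraries are above the line.

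Rich and poor libraries were spread over 4 of the 5 groups. Among stressed mice on the control diet, Ttr was 961, 1051, 1141, 17399.8 and 48153 in the 5 sham libraries, and it ran from 904 to 31293 (median 7859) in the 6 ECT libraries, of which 3 were rich. On the PLX diet it was 1354, 26252, 31583, 35833 and 63213 in the sham libraries and 1486, 1667, 2202 and 47339 in the ECT libraries. The nonstressed libraries stood at 12771, 16222, 37314 and 78579. Thus 2 of 5, 3 of 6, 4 of 5 and 1 of 4 libraries of the stressed groups were rich, and 4 of 4 nonstressed ones. With the groups as covariate, the nonstressed libraries add nothing to the difference between rich and poor, which rests on 10 rich and 10 poor libraries of stressed mice.

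Libraries held 14.97 M to 20.12 M reads on genes, and rich and poor ones overlapped in depth (14.97 M to 17.75 M and 15.16 M to 20.12 M). Prox1, a factor of dentate granule cells that marks the labelled tissue, stood at 886 to 1321 (median 1111) in poor and 725 to 1562 (median 1148) in rich libraries. In library 17, a rich one, Rn45s (ribosomal RNA) held 2.90% of reads, where the other libraries had 0.598 to 1.005%. Genes of a second brain region moved with the split. The thalamus list mean (14 genes, log2 values less their average over all libraries) was above 0 in 9 of the 14 rich libraries (numbers 2, 3, 4, 7, 11, 12, 17, 22 and 23) and in 0 of the 10 poor ones. The split by Ttr thus came with more than choroid plexus transcripts, and the comparison is given below also with the thalamus mean as a covariate and without those 9 libraries. In bulk RNA, more cells of a type and more RNA per cell cannot be told apart.

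Per gene, rich and poor libraries were compared with limma on log2(normalized count + 1), with the 5 groups as covariate and Ttr left aside. Of 15224 genes tested, 502 (3.3%) were higher in the rich libraries and 120 (0.788%) were lower at an adjusted p below 0.05, 622 (4.09%) in all. The rises were larger: their median log2 difference was 0.74 and 172 were at 1 or more, whereas the falls had a median of -0.19 and 115 of the 120 lay between -0.5 and 0. The median over all genes was -0.0043. Of the 502, 438 passed the filter on low values with the poor libraries alone, and 64 passed it only through the rich libraries, where they had to be high. Among genes named below this holds for Shox2, Slc4a5, Gbx2, Tmem72, Irx2, Wfdc2, Cdh3, Steap1, Slc16a8, Slco1a5, Lmx1a and Chrnb4, each at 10 or more in fewer than 4 poor libraries; their values are descriptions and are given without a p. Taken as a slope on log2 Ttr over all libraries in place of the split, 1058 genes (6.95%) passed, 791 (5.2%) upward and 267 (1.75%) downward, with 53 of the 60 choroid plexus genes, 14 of 20 ependymal genes and 12 of 14 thalamus genes upward. In 50 genes (0.328%) every rich library lay above every poor one, and in 0 genes every rich one lay below. Because Ttr sorted the libraries, a call says that a gene moved with the split that Ttr set.

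The count of calls turned on single libraries. Without library 2 it was 886 higher and 475 lower, without library 3 it was 275 and 19, without library 11 it was 255 and 27, without library 19 it was 266 and 31, and without library 1 it was 320 and 49. The count of lower genes also moved by over 1.5 times without library 5 (69), 8 (52), 9 (42), 12 (78), 13 (190), 14 (65) or 15 (71). When the title letter, whose meaning the labels do not give, replaced the condition groups in the fit, the comparison rested on 4 letters that hold both kinds (8 libraries). Then 40 genes (0.263%) were higher and 0 lower with limma (224 lower at an unadjusted p below 0.05). All 40 were among the 502, and 22 of them were choroid plexus genes. Of 20 ependymal and 14 thalamus genes 0 passed, beside 0.263% of all genes, so these counts of 0 say little. At an unadjusted p below 0.05, 9 ependymal and 10 thalamus genes were higher, beside 709 of the 15224 genes tested. No gene's difference between rich and poor was called to vary among the 4 groups with limma (0 at an adjusted p below 0.05, 381 at an unadjusted p below 0.05, smallest adjusted p = 0.99986). With so few libraries of a kind per group, that test could miss real variation. For Kcnj13, a potassium channel of the plexus, the differences in the 4 groups lay close together. They were 4.20 and 3.96 on the log2 scale among ECT libraries on the control and PLX diets, and 4.20 and 4.08 among sham libraries. The PLX ECT group has 1 rich library and the PLX sham group 1 poor one, so values of these groups are descriptions. For Enpp2 the 4 values were 1.67, 2.27, 1.94 and 2.46. For the thalamic gene Shox2 they were 6.48, 4.34, 4.92 and 1.36, the lowest in the sham PLX group, where 1 of the 4 rich libraries had a thalamus list mean above 0.

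Genes of the choroid plexus epithelium rose together. Of 61 genes in 4 lists (products released from the cell, transporters, receptors with junction and structural proteins, and transcription factors), 60 were tested and 51 were higher in the rich libraries, against 3.3% of all genes. Their median log2 difference was 1.77, against -0.0043 over all genes. No member was lower with limma, DESeq2 or edgeR, and 0 were lower at an unadjusted p below 0.05. Of the 51 that passed the filter with the poor libraries alone, 43 were higher. In 29 of the 60 every rich library was above every poor one, beside 0.328% of all genes. Some of the 29, such as Slc4a5 and Tmem72, passed the filter only through the rich libraries. The sum of the lists ran from 15652 to 19058 in the poor libraries (median 17258) and from 24095 to 63242 in the rich ones (median 35840.0). The 4 lists are chosen markers, so the counts describe them and support no claim about other genes. Without Ttr, the lists took 0.0930 to 0.118% of reads in poor and 0.144 to 0.391% in rich libraries.

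**Figure D2:**
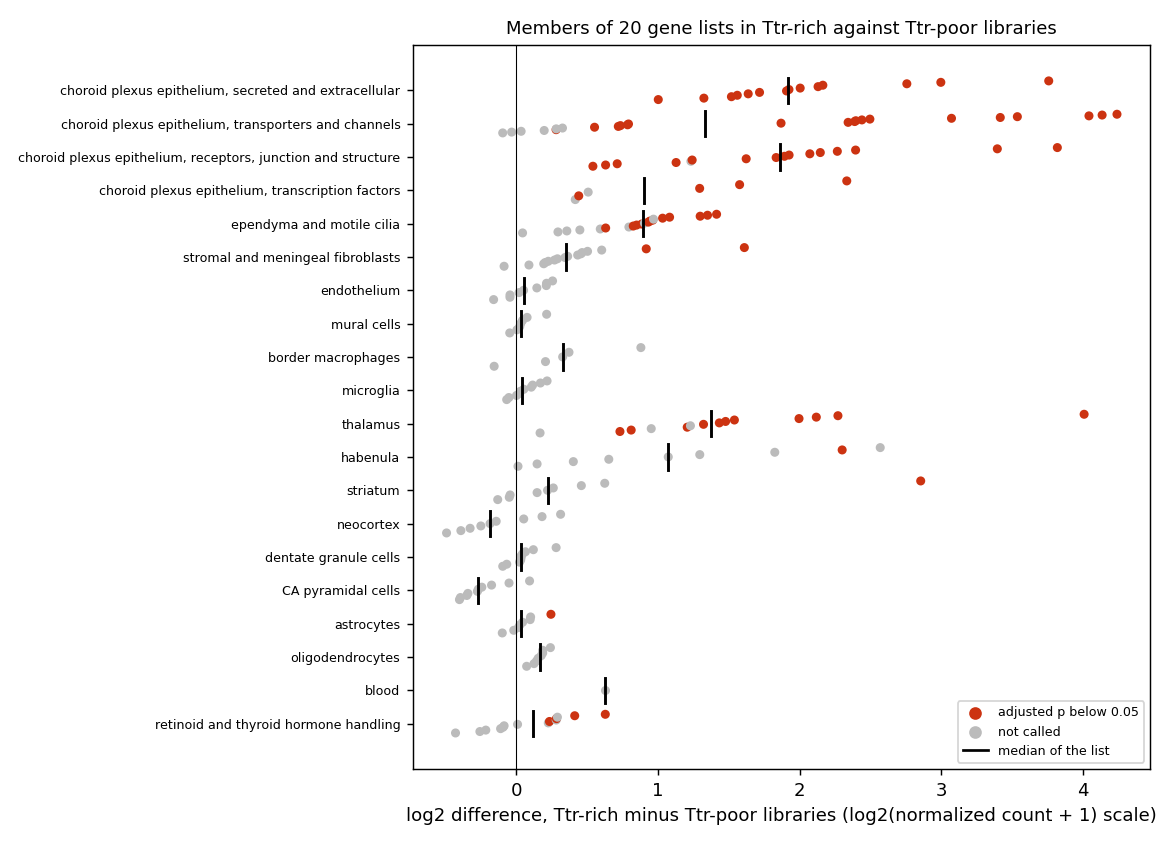
Log2 difference between rich and poor libraries (log2(normalized count + 1) scale, groups as covariate) for each tested member of 20 gene lists, 1 point per gene; red points have an adjusted p below 0.05 and the bar is the median of the list. The 4 choroid plexus lists have medians of 0.90 to 1.92, ependyma 0.89, thalamus 1.38 and habenula 1.07, and endothelium, mural cells, microglia, dentate granule cells and astrocytes have medians of 0.03 to 0.05.

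All 14 secreted and extracellular products were higher (median 1.92), beside 3.3% of all genes. F5, coagulation factor V, ran from 22.9 to 51.4 in the poor libraries (median 32.6) and from 186 to 835 in the rich ones (median 395). The ranges did not overlap (limma, log2 difference 3.76, SE 0.26, adjusted p = 1.77e-08). 1500015O10Rik, also named Ecrg4, encodes augurin, a peptide precursor shed from this epithelium; it ran from 18.9 to 68.3 in the poor libraries (median 46.1) and from 149 to 798 in the rich ones (median 349). Every rich library was again above every poor one (log2 difference 3.00, SE 0.28, adjusted p = 1.15e-06). Enpp2 (chr15:54838901-54952789) makes autotaxin, the enzyme that releases lysophosphatidic acid, and ran from 2785 to 5256 in the poor libraries (median 4270.1) and from 7821 to 31298 in the rich ones (median 15033). Its poor libraries were already well above 1000 counts, and the rich ones stood above them all (log2 difference 2.00, SE 0.23, adjusted p = 1.76e-05). Kl, the ageing-related hormone and FGF23 coreceptor klotho, ran from 432 to 658 in the poor libraries (median 531) and from 829.6 to 2491 in the rich ones (median 1175), without overlap (log2 difference 1.32, SE 0.18, adjusted p = 1.55e-04). Ace, which cleaves angiotensin I, was higher by 2.13 on the log2 scale, Igfbp2, a carrier of insulin-like growth factors, by 1.52, and Sostdc1, an antagonist of BMP and WNT ligands, by 1.91. Col8a1 and Col8a2, chains of type VIII collagen, were higher by 2.76 and 1.92, Wfikkn2, a protease inhibitor that binds TGF-beta family ligands, by 2.16, Lbp, which binds lipopolysaccharide, by 1.72, Pcolce, an enhancer of procollagen cleavage, by 1.64, and Sema3b, a secreted semaphorin, by 1.56. The smallest rise of the 14 was that of Rarres2, which encodes chemerin (log2 difference 1.00, SE 0.24, adjusted p = 0.022). It overlapped, with only 3 rich libraries above all poor ones, and its call was lost without library 3, 11 or 19.

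Among transporters and channels 18 of 24 were higher (median 1.33), beside 3.3% of all genes. Kcnj13 (chr1:87384577-87394729 on GRCm38.p6) encodes the apical potassium channel Kir7.1. It ran from 5.26 to 17.7 in the poor libraries (median 9.48) and from 73.3 to 416 in the rich ones (median 191), with no overlap and all 14 rich libraries several times above the poor ones (log2 difference 4.14, SE 0.25, adjusted p = 2.01e-09). Slc4a5 (chr6:83207580-83304945), a sodium bicarbonate cotransporter, ran from 4.16 to 21.4 in the poor libraries (median 8.81) and from 78.9 to 432 in the rich ones (median 168). The rich libraries were again all higher, with the largest log2 difference of the 4 lists (4.24). Kcne2, a regulatory subunit of potassium channels, ran from 3.12 to 16.8 in the poor libraries (median 8.23) and from 40.8 to 339 in the rich ones (median 144) (log2 difference 4.04, SE 0.34, adjusted p = 1.68e-07). Aqp1, the water channel of the apical membrane, ran from 5.2 to 13.9 in the poor libraries (median 10.6) and from 41.8 to 228 in the rich ones (median 93.5), without overlap (log2 difference 3.42, SE 0.29, adjusted p = 1.68e-07). Folr1, the receptor that carries folate into the cerebrospinal fluid, ran from 10.5 to 26.3 in the poor libraries (median 21.3) and from 94.7 to 411 in the rich ones (median 199), also without overlap (log2 difference 3.54, SE 0.27, adjusted p = 5.10e-08). Clic6, a chloride channel relative, was higher by 2.40, Trpv4, an osmosensitive cation channel, by 2.34, Slc16a8, a lactate carrier, by 2.39, and Abca4, a retinoid flippase, by 2.50. Steap1, a metalloreductase relative, was higher by 3.07, Slco1a5, an organic anion carrier, by 2.44, and Slc13a4, a sulfate carrier, by 1.87. Smaller rises were those of Slc4a2, the AE2 anion exchanger of the basolateral membrane, at 0.78, Slc31a1, a copper importer, at 0.73, Trpm3, a cation channel, at 0.79, and the carbonic anhydrases Car14 and Car12, at 0.72 and 0.55. The call of Car12 was lost without library 11 or 19.

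Some transporters were broadly present and moved little. Slc12a2, the NKCC1 cotransporter, ran 859 to 1516 (median 1067) in poor and 1021 to 1761 (median 1375) in rich libraries (log2 difference 0.32, adjusted p = 0.11). The ranges overlapped widely. Atp2b3, a plasma membrane calcium pump that neurons use too, differed by 0.03 (adjusted p = 0.77), Abcb1b by -0.03 (adjusted p = 0.875) and Slc5a5, the iodide carrier, by -0.10 (adjusted p = 0.607). Slc29a4 and Stra6 also did not pass, at 0.20 and 0.28. Slc39a12, a zinc transporter, passed with a small difference of 0.28 (adjusted p = 0.00967).

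Of the receptors, junction and structural proteins, 15 of 16 tested were higher (median 1.86), beside 3.3% of all genes. Mfrp was listed at 0 in all libraries. Cldn2 forms the cation-permeable tight junction of this leaky epithelium and ran from 7.37 to 17.1 in the poor libraries (median 14) and from 65.9 to 305 in the rich ones (median 142), without overlap (log2 difference 3.40, SE 0.25, adjusted p = 1.77e-08). Tmem72 ran from 0.99 to 7.63 in the poor libraries (median 3.14) and from 25.3 to 139.6 in the rich ones (median 55.3), so the poor libraries lay near the floor of 3 reads (log2 difference 3.82). Krt18 and Krt8, keratins of simple epithelia, were higher by 2.15 and 1.62, Rdh5, a retinol dehydrogenase, by 1.92, and Spint2, a serine protease inhibitor of epithelia, by 0.71. Prlr, the prolactin receptor, was higher by 1.89, with library 5 the highest of the poor ones. Htr2c, the serotonin 2C receptor, which neurons carry as well, was higher by 0.54 only (adjusted p = 0.0277), and leaving out library 1, 3, 4, 5, 8, 11 or 12 took it above the threshold. Cldn3 differed by 1.23 and did not pass (adjusted p = 0.0976). Cldn1 differed by almost the same amount, 1.24, and passed (adjusted p = 0.0276), but not without library 1, 3, 4, 11, 12 or 19.

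Of 6 transcription factors, 4 were higher, beside 3.3% of all genes. Otx2 (chr14:48656781-48667644) is required to form the choroid plexus and to keep it, and ran from 15.8 to 54 in the poor libraries (median 35) and from 77.6 to 324 in the rich ones (median 167). All rich libraries were above all poor ones (log2 difference 2.33, SE 0.29, adjusted p = 3.70e-05). Lmx1a and Msx1, homeobox factors of the roof plate from which the plexus develops, were higher by 1.58 and 1.29, and Rfx2, a factor of ciliated cells, by 0.44. Msx2 differed by 0.51 (adjusted p = 0.0894) and Gmnc, a regulator of multiciliated cells, by 0.42 (adjusted p = 0.207).

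Ranked by correlation with Ttr over the 24 libraries, after group means were removed, the 10 closest genes were Kcnj13 (r = 0.992), F5 (0.991), Cldn2, Folr1, 1500015O10Rik, Slc4a5, Kcne2, Abca4, Tmem72 and Aqp1 (0.974). Values of a library share its depth, its size factor and its condition group, and each r is a description. All 10 are in the choroid plexus lists. Those lists hold genes known for that tissue but were chosen with earlier results of these data known, so the 10 of 10 is a description. Within the rich libraries the amount over the mean of the poor ones was set against that of Ttr, also taken over its mean in the poor ones. Kcnj13 came with 4.41 to 7.25 normalized counts for each 1000 of these Ttr counts, a 1.64-fold spread over 14 libraries (coefficient of variation 15.6%). For Trpv4 this ran 2.79 to 4.26 (11.8%) and for 1500015O10Rik 8.11 to 12.3 (13.8%). These ratios varied less than the full Ttr count, which spanned 6.15-fold. Enpp2 ran 237 to 490.0, a 2.07-fold spread, and Otx2 1.47 to 7.24, a 4.93-fold one.

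**Figure D3:**
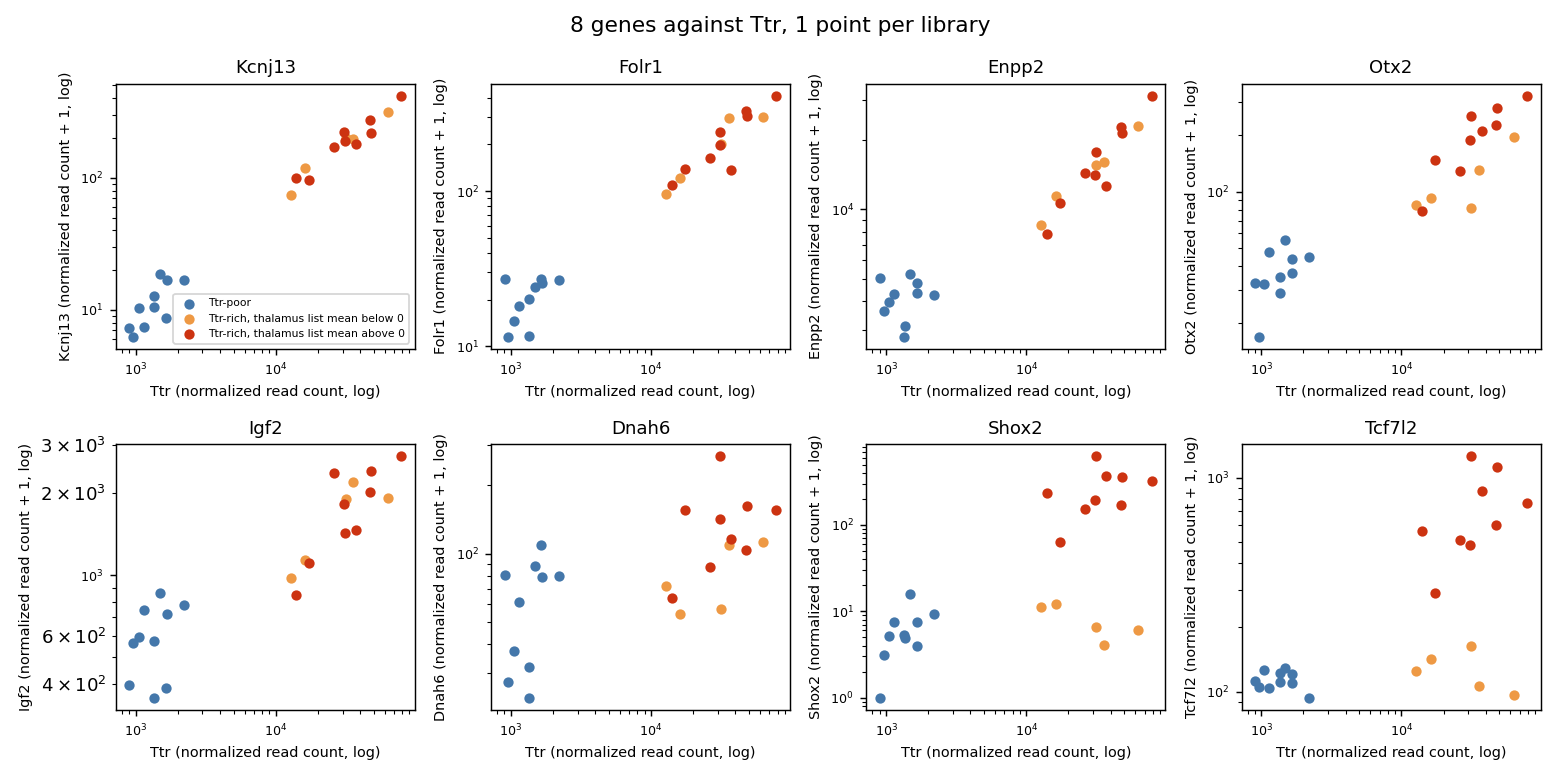
Normalized read count + 1 of 8 genes against Ttr (both log axes), 1 point per library, coloured by poor, rich with a thalamus list mean below 0 and rich with one above 0. Kcnj13, Folr1 and Enpp2 rise along Ttr through all rich libraries, Dnah6 overlaps between rich and poor, and Shox2 and Tcf7l2 are high in 9 rich libraries and at the level of the poor ones in the other 5.

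Ependymal genes rose in part. Of 20 genes of ependyma and motile cilia, 12 were higher (median 0.89), beside 3.3% of all genes, and 11 with DESeq2 and with edgeR. In 0 of the 20 was every rich library above every poor one, beside 0.328% of all genes. Foxj1, the master factor of motile cilia, ran from 109.7 to 357 in the poor libraries (median 249) and from 193 to 768 in the rich ones (median 338). Most of both ranges overlapped (limma, log2 difference 0.85, SE 0.23, adjusted p = 0.0395). Dnah6, a dynein heavy chain of the cilium, ran from 22.3 to 108 in the poor libraries (median 69.3) and from 53.5 to 267 in the rich ones (median 110.2). It was highest in library 3, 8 rich libraries lay above all poor ones (log2 difference 1.35, SE 0.31, adjusted p = 0.0163), and its call was lost without library 19. Mia, a secreted protein, was higher by 1.03, Pifo, a regulator of cilia, by 1.30, and Hydin, a central-pair protein of the axoneme, by 1.08. Their calls were lost without library 19, that of Pifo also without 3, 7 or 11, and that of Hydin also without 1, 3, 7 or 11. Rfx3, the member with the highest level, had a log2 difference of 0.04 and did not pass (adjusted p = 0.756). The amount of Dnah6 over the poor mean ran -0.498 to 6.88 for each 1000 Ttr counts over the poor mean of Ttr. In 2 rich libraries Dnah6 was below its poor mean. For Foxj1 it ran -3.49 to 17.5, with 3 below.

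Most genes of the stroma had a positive difference, and 2 were called. Of 16 genes of stromal and meningeal fibroblasts 15 had a positive difference (median 0.35). The 2 called stood beside 3.3% of all genes, and 4 were higher at an unadjusted p below 0.05. Igf2, a growth factor that both the stroma and the epithelium of the plexus can express, ran from 354 to 859.6 in the poor libraries (median 583) and from 843 to 2730.4 in the rich ones (median 1867). All rich libraries but 1 were above all poor ones (log2 difference 1.61, SE 0.18, adjusted p = 1.76e-05). Col1a2, a chain of type I collagen, was higher by 0.92 (adjusted p = 0.0168) and lost its call without library 12 or 19. Its partner Col1a1 differed by 0.27 (adjusted p = 0.382) and Dcn, the proteoglycan decorin, by 0.50 (adjusted p = 0.224). The sum of the list ran from 1330.2 to 2642 in poor (median 1927) and from 1798 to 5919 in rich libraries (median 3505). When the mean of this list was added to the fit, 117 genes were higher and 2 lower.

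The lists of vessels and immune cells gave no calls with limma. Over all genes 3.3% were higher and 0.788% lower, so lists this short are apt to give none, and the counts of 0 say little. Of 9 endothelial genes 0 passed with limma, DESeq2 or edgeR, and 2 were higher and 1 lower at an unadjusted p below 0.05 (median 0.05). Plvap, a protein of the fenestrated vessels that the plexus has, ran 203 to 294 (median 233) in poor and 182 to 252 (median 222) in rich libraries. Its difference was -0.16 (adjusted p = 0.169). Of 7 mural genes and 10 microglial genes 0 passed with any of the 3 tools and 0 had an unadjusted p below 0.05 (medians 0.03 and 0.04). Of 5 tested genes of border macrophages 0 passed and 2 were higher at an unadjusted p below 0.05 (median 0.33). Of the blood list 1 gene was tested, which did not pass with limma or edgeR (log2 difference 0.62) and did with DESeq2.

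Lists of hippocampal neurons and glia gave few calls. With limma 4.09% of all genes were called in either direction, so counts of 0 in lists this short again say little. Dentate granule genes had a median of 0.03 and 0 of 10 passed with any of the 3 tools, with 1 higher at an unadjusted p below 0.05. The CA pyramidal list had a median of -0.27. With limma 0 of its 10 genes passed, 6 were lower at an unadjusted p below 0.05, and DESeq2 called 3 lower and edgeR 0. In the neocortex list 0 of 9 passed with limma (median -0.19), 1 was higher and 2 lower at an unadjusted p below 0.05, and DESeq2 called 1 lower and edgeR 0. Aqp4, the astrocyte water channel, was the only called gene of 8 astrocyte genes (0.24, adjusted p = 0.0327), and it did not pass without library 1, 3, 6, 7, 9, 10, 11, 12 or 19. Of 8 oligodendrocyte genes 0 passed with the 3 tools and 0 had an unadjusted p below 0.05 (median 0.16).

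Thalamic genes rose with the split as well, in some libraries only. Of 14 thalamus genes, 11 were higher (median 1.38), beside 3.3% of all genes, and 12 with DESeq2 and with edgeR. In 0 of the 14 did rich and poor libraries separate, beside 0.328% of all genes. Tcf7l2, a factor of thalamic and habenular neurons, ran 92.9 to 128 (median 111) in poor libraries, 95.8 to 163 (median 123) in the 5 rich libraries with a thalamus list mean below 0 and 289 to 1259 (median 598) in the other 9. The 5 libraries, numbers 18, 20, 21, 24 and 25, were near the poor level and the 9 above it (limma over all 14, log2 difference 2.12, SE 0.44, adjusted p = 0.00898; not called with the title letter in the fit). Gbx2, a homeobox factor of the developing thalamus, ran 0 to 3.27 (median 1.01) in poor libraries, 0 to 3.06 (median 1.86) in those 5 and 17.5 to 133 (median 62.2) in the 9. Shox2 (chr3:66971723-66981771), a homeobox factor of the thalamus that was not in the list, had the largest log2 difference among genes with a mean of at least 20 in the rich libraries (4.70). It ran 0 to 14.9 (median 4.21) in poor libraries, 3.09 to 11.3 (median 5.63) in the 5 and 61.6 to 619 (median 233) in the 9. Zic1 and Synpo2, also on the list, were higher by 2.00 and 1.43, Prkcd, a protein kinase C of thalamic relay neurons, by 1.54, and Irx2, a homeobox gene on no list, by 3.80. Ptpn3, the member with the highest level, had 0.17 and did not pass (adjusted p = 0.29); it went below 0 with the thalamus mean as a covariate (-0.091) or without the 9 libraries (-0.31), and Tcf7l2 went to -0.040 without them. The split into 5 and 9 and the covariate were made with this list, so these values describe it.

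Of neighbouring tissues, the habenula list had a median log2 difference of 1.07, with all 9 genes positive and 7 higher at an unadjusted p below 0.05. Limma and DESeq2 called 1 of the 9 higher and edgeR 4, where limma called 3.3% of all genes higher. The gene that limma called was Chrnb4, a nicotinic receptor subunit (log2 difference 2.30). It was highest in libraries 3, 11 and 23, at 197, 145 and 135, all 3 with raised thalamic genes, and its call was lost without library 1, 3, 8, 9, 11 or 12. In the striatum list (median 0.22) limma and edgeR called 1 of 9 higher and DESeq2 2, with 3 higher at an unadjusted p below 0.05. The gene that limma called was Six3 (2.85, adjusted p = 0.00299), a homeobox factor of forebrain.

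Log2 Ttr and the thalamus list mean were also fitted together in limma with the groups. On Ttr 93 genes (0.611%) had a positive slope at an adjusted p below 0.05, and 38 of the 60 choroid plexus genes were among them. Counting genes that passed the filter with the poor libraries alone, these were 76 and 33. On the thalamus mean 99 genes (0.65%) did, and 0 of the 60 choroid plexus genes were among them, with 90 of the 99 passing the filter with the poor libraries alone. The 2 sets shared 1 gene, Epn3, which is 1.08% of the first and 1.01% of the second, beside 0.65% and 0.611% of all genes. This overlap and the 0 of 60 above lie near the shares over all genes, so they do not show that the sets are distinct. No gene had a negative slope on either with limma (327 on Ttr and 325 on the thalamus mean at an unadjusted p below 0.05), edgeR called 0 and DESeq2 1 on each. The counts on Ttr fell to 41 without library 19 and to 55 without library 21, and those on the thalamus mean to 63 without library 21. Of the 14 thalamus genes, 13 had a slope on the thalamus mean, which is their own mean, so the count says nothing new. Of 20 ependymal genes 0 passed on either with limma, DESeq2 or edgeR, but 11 had a positive slope on Ttr at an unadjusted p below 0.05 (median 0.18) and 0 had one on the thalamus mean (median 0.07).

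Kcnj13 had a slope of 0.86 log2 units for each log2 unit of Ttr (adjusted p = 5.68e-12) and 0.10 on the thalamus mean (adjusted p = 0.935). For Slc4a5 they were 0.99 and -0.18. Shox2 was the reverse, with 0.13 on Ttr and 2.67 on the thalamus mean. Tcf7l2 had 0.01 on Ttr and 1.36 on the thalamus mean. It is a member of that mean, which bears on both slopes, so they are descriptions and are given without a p. Igf2, which is on the fibroblast list, went with Ttr (0.28, adjusted p = 5.35e-04) and had 0.22 on the thalamus mean (adjusted p = 0.709).

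**Figure D4:**
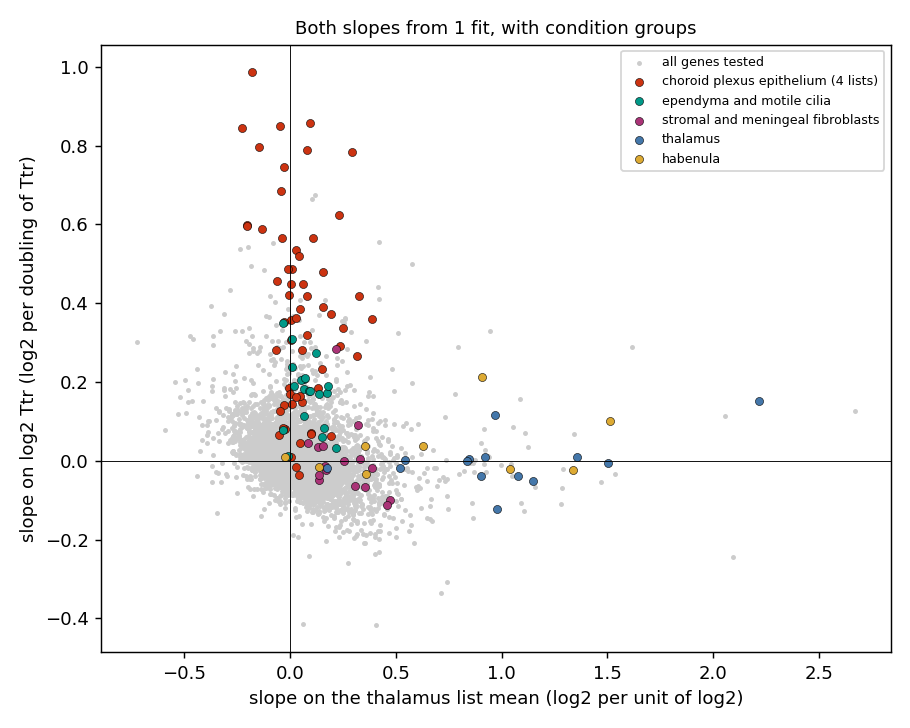
Slope on log2 Ttr against slope on the thalamus list mean, both from 1 fit with the condition groups, 1 point per gene (log2 units per log2 unit); coloured points are members of 5 lists. Choroid plexus genes spread up the vertical axis to 0.99 near 0 on the horizontal one. Thalamus genes spread along the horizontal axis to 2.22 near 0 on the vertical one. The thalamus mean is the mean of these same genes, so their average place on both axes was set by the fit.

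Among the 93 genes were 54 that stood on none of the lists. Those named here were chosen after their values were seen. Rbm47, an RNA-binding protein of epithelia, had a slope of 0.48 on Ttr (adjusted p = 5.21e-07) and means of 57.3 in the rich and 12.8 in the poor libraries. Slc2a12, a sugar carrier, had 0.33 (adjusted p = 1.27e-05) and means of 164 in the rich and 53.5 in the poor libraries. Wfdc2, a protease-inhibitor-like secreted protein of epithelia, had 0.67 and means of 35.6 in the rich and 3.55 in the poor libraries. Cdh3, P-cadherin, had 0.55 with means of 22.1 in the rich and 1.32 in the poor libraries. Sulf1, an enzyme that trims heparan sulfate, had 0.41 (adjusted p = 0.00553), and Col9a3, a collagen chain, 0.29 (adjusted p = 0.00202). Cdkn1c, an inhibitor of cyclin-dependent kinases, had 0.27 (adjusted p = 0.0132). Their slopes on the thalamus mean lay between -0.12 and 0.42.

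With the thalamus mean as a covariate of the split, 14 genes (0.092%) were higher and 0 lower with limma (247 lower at an unadjusted p below 0.05). Of the 14, 13 were choroid plexus genes and the other was Rbm47. They included Kcnj13, Slc4a5, Kcne2, Folr1, Aqp1, Cldn2, F5 and Ace. When the 9 libraries with a thalamus list mean above 0 were left out instead, only libraries 18, 20 and 21 against the single poor library 19, all of PLX sham mice, still bore on the split, since no other group kept both kinds. Library 19 is then assumed to vary like the others and the counts are a description. In that fit 34 genes (0.227%) were higher and 0 lower with limma (299 at an unadjusted p below 0.05), 23 of them choroid plexus genes. The median of the choroid plexus lists was 1.24 with the covariate and 2.05 without the 9 libraries, and that of the thalamus list was -0.03 and 0.09. The thalamus list itself made the covariate and chose the 9 libraries, so its medians near 0 follow from that and say nothing new.

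The 10 largest falls among the called genes with a mean of at least 20 in the poor libraries all overlapped, and none passed with the title letter in the fit. 1700030C10Rik ran from 22.1 to 81.1 in the poor libraries (median 31.1) and from 9.24 to 48.3 in the rich ones (median 19.1) (log2 difference -0.96, SE 0.26, adjusted p = 0.0391). It was highest in library 1, and leaving out library 1, 3, 4, 7, 8, 9, 10, 11, 12, 14, 15, 19 or 20 took its call away. Nov, a matricellular protein also named CCN3, ran from 1624 to 2920.5 in the poor libraries (median 2039) and from 940.3 to 2359.8 in the rich ones (median 1469) (log2 difference -0.51, SE 0.12, adjusted p = 0.0152), and its call held without each library in turn. Crhbp, the binding protein of corticotropin-releasing hormone, ran from 345 to 527 in the poor libraries (median 444) and from 208 to 538 in the rich ones (median 348). It was lower (log2 difference -0.44, adjusted p = 0.0311), and its call was lost without library 5, 6, 7, 9, 11 or 19. 9130024F11Rik, Dazl and Tmem74 fell, with log2 differences of -0.55, -0.44 and -0.42 and calls that held without each library in turn. Henmt1, 1700024P16Rik, Efcab6 and BC030500 were lower, with log2 differences of -0.65, -0.47, -0.40 and -0.38, and each lost its call in several omissions. These were libraries 1, 3, 5, 6, 9, 11, 12, 15 and 19 for Henmt1, and 1, 3, 4, 6, 7, 8, 11, 12, 14, 15, 17, 19, 20, 22, 23 and 24 for 1700024P16Rik. They were 1, 3, 4, 6, 7, 8, 9, 11, 14, 17 and 19 for Efcab6, and 1, 3, 4, 5, 7, 8 and 19 for BC030500.

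Whether Ttr differed between the study's groups was tested on log2 Ttr by exact permutation, 2-sided, for 5 pairs of groups. Ttr set the split into rich and poor, but that split used no condition group. The tests concern Ttr alone, and the other choroid plexus genes were not tested in this way. Stressed sham mice on the control diet stood 2.82 below nonstressed mice on the log2 scale (-2.82, exact p = 0.143, adjusted p = 0.377). PLX sham mice stood 2.27 above control-diet sham mice (exact p = 0.151, adjusted p = 0.377). ECT differed from sham by 0.47 on the control diet (exact p = 0.775, adjusted p = 0.895) and by -2.25 on the PLX diet (exact p = 0.286, adjusted p = 0.476). PLX ECT mice differed from control-diet ECT mice by -0.45 (exact p = 0.895, adjusted p = 0.895). The groups overlapped in each pair, none of the 5 differences passed, and the spread within a group was as large as 2.67 (SD of log2 Ttr, stressed sham mice, n = 5).

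The groups compared nevertheless held unequal shares of rich libraries. In sham mice, the PLX diet against the control diet set 4 rich of 5 libraries against 2 of 5. Of the 60 choroid plexus genes 55 had a positive difference, with a median of 0.81 against 0.00098 for all genes. None was called with limma, DESeq2 or edgeR, and 2 were higher and 1 lower at an unadjusted p below 0.05, while over all genes 283 (1.86%) were called, 13 (0.0854%) higher and 270 (1.77%) lower. Kcnj13 differed by 2.27 (SE 1.25, adjusted p = 0.612). With the split as a term its difference was 0.62 (adjusted p = 0.52), the median of the lists was 0.10 with 40 of 60 positive, and 345 genes (2.27%) passed, 39 (0.256%) higher and 306 (2.01%) lower. The count of higher genes moved from 13 to 3 without library 7, 4 without library 8, 5 without library 18, 6 without library 17, 20 without library 9 or 25, and 22 without library 21.

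In ECT mice the inequality ran the other way, with 1 rich of 4 libraries on the PLX diet and 3 of 6 on the control diet. The median of the choroid plexus lists was -0.03 with 23 of 60 positive. With the split as a term it was 0.41 with 54 of 60 positive, and 0 were called in either fit with limma (0 at an unadjusted p below 0.05 without the term, 9 higher with it, 0 called by DESeq2 or edgeR without it). Over all genes 350 (2.3%) passed without the term, 67 (0.44%) higher and 283 (1.86%) lower, and 336 (2.21%) with it, 66 (0.434%) higher and 270 (1.77%) lower. Higher genes numbered 13 without library 12, the 1 rich library on the PLX diet, 21 without library 15, 34 without library 4 and 101 without library 1. All 10 microglial genes were lower on the PLX diet in both comparisons, with and without the split. P2ry12, a purinergic receptor of microglia, fell in sham mice, with a log2 difference of -2.86 without the term and -2.83 with it.

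**Figure D5:**
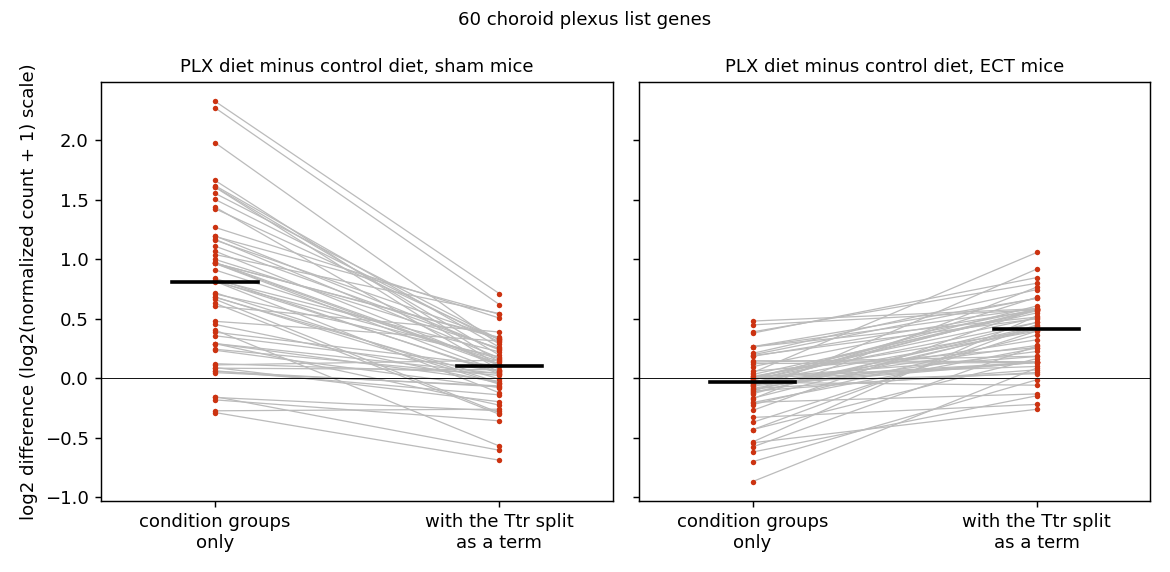
Log2 difference between PLX and control diet (log2(normalized count + 1) scale) of 60 choroid plexus genes in sham mice and in ECT mice, each gene joined between the fit with condition groups only and the fit with the Ttr split as a term; bars are medians. The median moves from 0.81 to 0.10 in sham mice and from -0.03 to 0.41 in ECT mice.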

How the data were processed

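Poly(A) RNA of mouse hippocampus was sequenced in 24 libraries. The deposited table holds a signal column for each library, which the authors made by scaling the reads of every gene with the library's size factor; per the file headers these are normalized counts. The submitters' processing notes name DESeq2 1.6.3, HTSeq 0.6.1p1, TopHat2 2.0.10 and cutadapt, and the builds mm10 and hg19 are named without a role. How strand was handled and which annotation was used are not given in the sources read, so overlapping genes on opposite strands and near-identical copies are uncertain. Values were whole multiples of 1 step per column, which gave whole reads for 100% of the values (tolerance 0.001 reads) and 14.97 M to 20.12 M reads per library, used for alternatives only. Counting limits, such as a floor of 3 reads, cover counting error only.

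Genes that reached 10 in 4 or more libraries (15225 of 23240, 15224 without Ttr) were tested with limma 3.58.1 (trend and robust options) on log2(value + 1), which understates the change of low genes, in R 4.3.3, with Benjamini-Hochberg adjustment over all tested genes. Rich or poor in Ttr was the term and the 5 condition groups the covariate. Alternatives were DESeq2 1.42.0 and edgeR 4.0.16 on recovered reads, no filter, a pseudocount of 8, the title letter as a random effect or in place of the groups, other covariates and thresholds, and each library left out in turn. The tests were tried on simulated data with 200 changed genes. The 47 pairs of libraries of a group were not repeats of 1 library (chi-square over degrees of freedom 3.76 to 27.1). Named genes are the 15 largest rises and 10 largest falls with a mean of 20 or more (rich libraries for rises, poor ones for falls), called members of the choroid plexus lists, up to 4 called members of other lists, the 10 genes closest to Ttr by correlation, and the thalamus, ependyma and fibroblast members with the highest level. Members of the lists outside this rule, and genes of the joint fit, were named after their values were seen. The split, the lists and these choices were made with earlier results of these data known. Gene positions come from RefSeq on GRCm38.p6, matched for 86 of 86 named genes with Ttr, by the symbol in the table or by its present one (Ccn3, Fyb2, Ecrg4 and Cltrn). Promoters were matched for 44 of the 51 called choroid plexus genes. Some called genes of the retinoid and thyroid hormone list are not reported here.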

Additional observations from a re-analysis of the deposited data

Results flagged for a closer look

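In 91 sets of 4 to 10 libraries tested for a library far from the rest, 8 values were marked, where chance marks about 1 set in 20. Library 12 was alone at 47339 Ttr among the PLX ECT libraries, whose next value was 2202. The other 7 were single poor libraries above the other poor ones. Library 13 had 200.2 for Slc13a4 (next 96.0), 819 for Zic1 (next 362) and 99.7 for Six3 (next 38.2). Library 5 had 122 for Prlr (next 73.7), library 19 had 654 for Htr2c (next 507), library 1 had 81.1 for 1700030C10Rik (next 44.6) and library 9 had 5.26 for Cdh3 (next 1.94). Zic1 is on the thalamus list, and the thalamus list mean of library 13 was -0.20, the highest of the poor libraries.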

How the results depend on the processing

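Of 3223 alternative values for 85 named genes, 2853 kept direction and call, 367 kept direction but changed their call, and 3 changed sign: Tcf7l2 at -0.040 and Ptpn3 at -0.31 without the 9 libraries with a thalamus list mean above 0, and Ptpn3 at -0.091 with that mean as a covariate. Tcf7l2 and Ptpn3 are both on the thalamus list, which made that covariate and chose the 9 libraries, so these 3 changes follow in part from that. For rich against poor, DESeq2 gave 213 lower genes and the title letter as a random effect 61 (consensus correlation 0.127). The letter as a fixed block gave 40 higher and 0 lower, and 60 of the 85 named genes lost their call. The thalamus mean as a covariate gave 14 higher and 0 lower, the fibroblast mean 117 and 2, and leaving out the 9 libraries 34 and 0. Leaving out 1 library gave 255 to 886 higher and 19 to 475 lower.

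For the slope on log2 Ttr (791 higher, 5.2%; 267 lower, 1.75%), DESeq2 gave 426 lower, the thalamus mean 93 higher and 0 lower, and leaving out the 9 libraries 43 and 0. Leaving out 1 library gave 529 to 989 higher and 89 (without library 3) to 480 (without library 2) lower. In the joint fit, leaving out 1 library gave 41 to 103 higher and 0 to 1 lower on Ttr, and 63 to 110 higher and 0 to 3 lower on the thalamus mean. DESeq2 gave 1 lower on each, and no filter gave 1 lower on Ttr.

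For the diet, higher genes in sham mice were 31 with DESeq2, 3 with the title letter (correlation 0.192), 39 with the split and 70 with log2 Ttr. In ECT mice they were 105 with DESeq2 and 20 with the title letter. Leaving out 1 library gave 3 to 22 higher and 233 to 279 lower in sham mice, and 13 to 101 higher and 206 to 289 lower in ECT mice. Ttr differences left 1 library out at -3.72 to -2.31 (stressed sham less nonstressed), -0.036 to 1.38 (ECT less sham, control diet), -3.44 to -1.77 (ECT less sham, PLX diet), 1.76 to 3.23 (PLX less control diet, sham) and -1.64 to 0.047 (PLX less control diet, ECT). Without a log scale, ECT less sham on the control diet was -379 normalized counts. Causes were not tested.

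No paired analysis was possible because the condition groups share no library number. Rich and poor libraries do share 4 title letters, and that fit is the fixed block above. The fits without the nonstressed group, with edgeR and RLE factors, with the 9 libraries left out, with the letter as a fixed block, and the alternatives of the joint fit were chosen after the data were seen. Depth limits the genes near the floor of 3 reads, such as Tmem72 in poor libraries.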

Other observations

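Of 14 tested genes that handle retinoids and thyroid hormone, the cargo of transthyretin, 4 were higher in the rich libraries, beside 3.3% of all genes, and 0 lower with limma, DESeq2 or edgeR (5 higher and 2 lower at an unadjusted p below 0.05, median 0.12). With limma 0 passed with the thalamus mean as a covariate (2 higher at an unadjusted p below 0.05), without the 9 libraries with raised thalamic genes (3 higher), or with the title letter in the fit (4 higher). In the joint fit 0 passed on Ttr with limma (4 higher at an unadjusted p below 0.05) and 1 with DESeq2 and with edgeR. Slco1c1, a thyroxine carrier of the brain barriers, ran from 523 to 727 in the poor libraries (median 616) and from 632 to 1141 in the rich ones (median 845). It was higher in the rich libraries with limma (log2 difference 0.41, SE 0.09, adjusted p = 0.0117) and lost its call without library 19. Aldh1a1, which makes retinoic acid, was higher by 0.28 (adjusted p = 0.042), and it did not pass without library 1, 3, 4, 5, 6, 7, 8, 9, 11, 12, 14, 15, 19 or 20. In the joint fit their slopes on Ttr had adjusted p = 0.273 and 0.936.

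Of genes on no list, those with a slope on the thalamus mean in the joint fit included Hcn4, a pacemaker channel, at 0.87 on that mean and 0.00 on Ttr, Ntng1, netrin G1, at 0.46 and -0.02, and Pcp4, a calmodulin regulator, at 0.39 and 0.01. These 3 were chosen after their values were seen.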
